A study of Rattus norvegicus with 24 samples.

Results

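The miR-99, miR-100 and miR-125 family comprised 5 guide strands, rno-miR-99a-5p, rno-miR-99b-5p, rno-miR-100-5p, rno-miR-125a-5p and rno-miR-125b-5p, chosen by name from the 728 miRNAs listed in the count tables. All 5 passed the filter on low counts in every comparison. They were measured by small RNA sequencing in adult Sprague-Dawley rats, in the perilesional cortex, which is the cortex beside the lesion, and in the thalamus of the same side. The TBI group of 6 rats had a lateral fluid-percussion injury, a model of head trauma made by a brief fluid pressure wave onto the intact dura. The sham group of 6 rats had the anesthesia and surgery, craniectomy included, without the pressure wave. Tissue was taken 3 months after surgery, each rat gave 1 library per region, and there were 24 libraries. The methods describe the rats as male, and the TBI rats were picked for sequencing by an inflammatory rim around the lesion on imaging, so they stand for such rats and not for injury at large.

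The family is one of the oldest in animals. In bilaterian genomes a miR-100-type gene, a let-7 gene and a miR-125-type gene often lie together in 1 cluster, and the worm relatives of miR-125 and let-7, lin-4 and let-7, time the steps of larval development. In mammals miR-99 and miR-100 are known as repressors of mTOR, the growth kinase, and miR-125 miRNAs are abundant in neurons and astrocytes. A miRNA pairs with its target messengers mainly through its seed, bases 2 to 8 from the 5′ end, so the 5 members fall into a miR-99/100 branch and a miR-125 branch with different seeds.

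RefSeq held the mature sequence of 4 of the 5 members. They are shown with the seed in capitals because the seed sets the 2 branches of the family apart. rno-miR-351-5p is added because it alone shared a member's seed among the other listed miRNAs that had a RefSeq sequence (655 of the 728 listed, members included).
rno-miR-99b-5p: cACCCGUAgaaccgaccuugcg
rno-miR-100-5p: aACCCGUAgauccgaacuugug
rno-miR-125a-5p: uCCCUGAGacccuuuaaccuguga
rno-miR-125b-5p: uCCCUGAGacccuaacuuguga
rno-miR-351-5p: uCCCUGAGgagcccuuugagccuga

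Counted from the 5′ end, rno-miR-100-5p differs from rno-miR-99b-5p at 4 of 22 bases (C1A, A11U, C16A and C21U), none of them in the seed. The first 13 bases of rno-miR-125a-5p and rno-miR-125b-5p are the same. In the RefSeq annotation of build GRCr8 the rno-miR-99b-5p sequence lies at chr1:67350070-67350091 and rno-miR-125a-5p at chr1:67350689-67350712, both on the plus strand and inside the protein-coding gene Spaca6. Their hairpins, with let-7e between them, span 696 bases. The rno-miR-100-5p sequence lies at chr8:50798307-50798328 on the plus strand, in a cluster with let-7a-2 and Mir125b1 that spans 51.8 kb and overlaps the gene models Mir100hgl and Lnc215. The rno-miR-125b-5p sequence is listed at chr11:29732588-29732609 on the plus strand, in a cluster with Mir99a and let-7c-1 that spans 45.3 kb inside the long non-coding RNA LOC103693508. Each cluster therefore holds a miR-99/100 gene and a miR-125 gene. The 2 miR-125b genes share 1 row of counts for rno-miR-125b-5p, while their opposite strands, rno-miR-125b-1-3p and rno-miR-125b-2-3p, have a row each.

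The cortex libraries held 744564 to 4069284 miRNA reads each, the thalamus libraries 523298 to 4139901. The lowest member count in any library was 2490 reads, so the spread between rats and not counting error limited the precision. The thalamus libraries that stood apart were those of sham rat 55 (523298 reads) and TBI rat 56 (538194 reads), the 2 shallowest of their region. The thalamus library of rat 55 was far from the other sham thalamus libraries in several members, so results that rest on these rats are also given without them. Levels are CPM (counts scaled to a common library total) with TMM factors, which scale libraries to the bulk of miRNAs. Within-region levels were scaled over the 12 libraries of a region, and levels compared between regions over all 24. Groups were taken from the sample titles, and p-values of comparisons within a region measure the spread between rats. Fits over all 24 libraries hold 2 libraries of each rat and no term for the rat, except where the rat is a block. Without the block their p-values measure the spread between libraries.

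The members were among the most read miRNAs of both tissues. Library preparation favours some small RNA sequences over others, so the order between members is one of reads and not of molecules. By reads per library rno-miR-99a-5p ranked 4 to 8 of all 728 miRNAs, rno-miR-125b-5p 4 to 20, rno-miR-125a-5p 7 to 34, rno-miR-100-5p 10 to 32 and rno-miR-99b-5p 17 to 39. In the sham cortex the median levels on the 24-library scale were 43039 CPM for rno-miR-99a-5p, 27650 for rno-miR-125b-5p, 19466 for rno-miR-125a-5p, 10483 for rno-miR-100-5p and 6351 for rno-miR-99b-5p. That order held in 6 of 6 sham cortex libraries. In the TBI cortex rno-miR-99a-5p and rno-miR-125b-5p were near each other, at medians of 36605 and 35795 CPM, with rno-miR-99a-5p the higher in 4 of 6 libraries. In the TBI thalamus the same pair stood at medians of 41905 and 27107 CPM, again with rno-miR-99a-5p higher in 4 of 6. rno-miR-125a-5p and rno-miR-100-5p were the other neighbours that changed places in thalamus, where rno-miR-125a-5p was higher in 4 of 6 sham and 4 of 6 TBI libraries. rno-miR-99b-5p was the lowest member in 23 of 24 libraries. The exception was the thalamus library of sham rat 55, in which rno-miR-125a-5p (5574 CPM) and rno-miR-125b-5p (13515 CPM) were below rno-miR-99b-5p (15921 CPM).

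**Figure D1:**
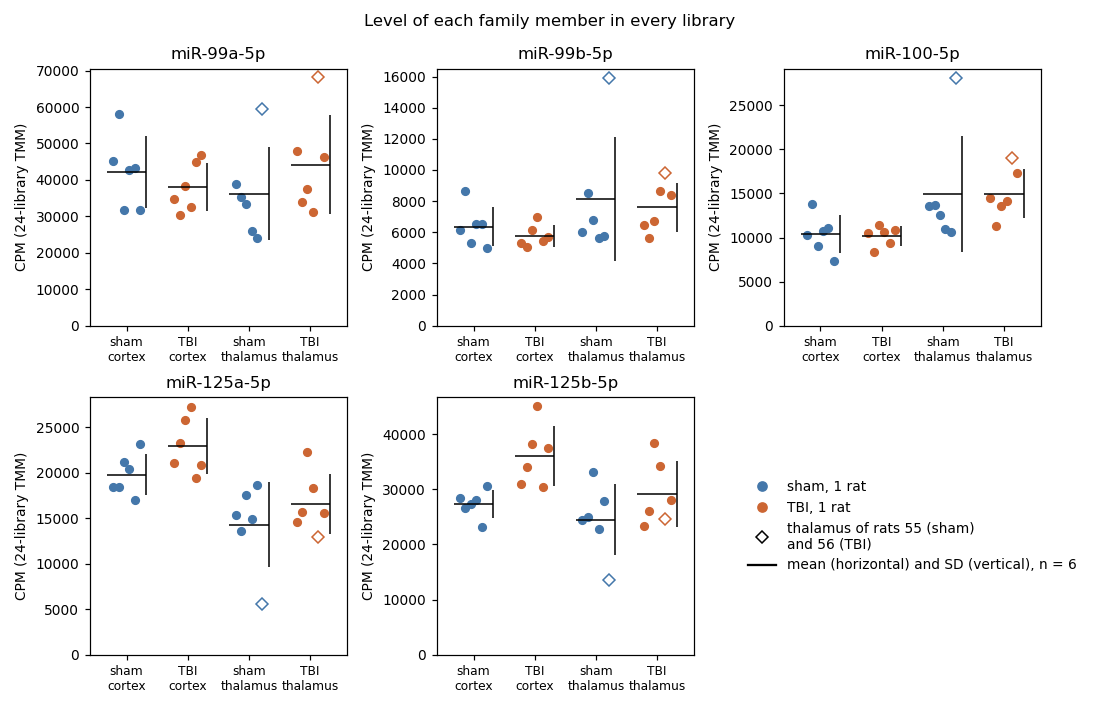
Level of each member in every library, in CPM on the scale shared by all 24 libraries, with the mean and SD of 6 rats per group. Open diamonds mark the thalamus libraries of rats 55 and 56, where rat 55 is highest of its group in the 3 miR-99/100 members and lowest in both miR-125 members.

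As an unscaled share of miRNA reads, the 5 members together took 8.16% to 9.02% in the sham cortex and 9.83% to 12.4% in the TBI cortex. These groups did not overlap, and their means were 8.72% ± 0.316 and 11.2% ± 1.11 (SD, n = 6 each). The miR-125 members made up 3.92% ± 0.648 of reads in sham and 5.84% ± 0.995 in TBI (SD, n = 6), and the miR-99/100 members 4.80% ± 0.660 and 5.31% ± 0.576. A share depends on the miRNAs that make up the rest of the library. With TMM factors over 24 libraries the summed level of the members was 94614 to 125637 CPM in sham cortex and 101243 to 122504 CPM in TBI cortex, and the groups overlapped. In thalamus the unscaled share was 9.92% to 12.1% in sham and 10.6% to 13.9% in TBI, with overlap.

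The first comparison asked which members differed between TBI and sham in the perilesional cortex. None of the 5 passed an adjusted p of 0.05 (edgeR quasi-likelihood test, Benjamini-Hochberg over 371 miRNAs), where 5.66% of all miRNAs tested did. The miR-125 branch held the larger differences, with rno-miR-125b-5p just short of the threshold, and the miR-99/100 branch was near 0. At an unadjusted p under 0.05, 2 of 5 members were counted, both of the miR-125 branch, against 21.8% of all miRNAs tested. The median log2 fold change was 0.02 over the members and 0.05 over all miRNAs tested.

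rno-miR-125b-5p in the sham cortex ran from 20477 CPM through a median of 24072 to 27423, and in the TBI cortex from 25257 through a median of 33397 to 43230. All 6 TBI rats lay above the sham median and 5 of 6 above every sham rat, with TBI rat 22 inside the sham range. The means were 24319 ± 2527 and 33257 ± 6347 CPM (SD, n = 6). The log2 fold change was 0.45 (SE 0.13, 95% interval 0.18 to 0.73) with an adjusted p of 0.0532 by the edgeR quasi-likelihood test. The call turned on small choices. It passed with RLE factors (adjusted p = 0.0361), DESeq2 (0.00994) or a mean count of at least 50 (0.0371), and without TBI rat 22 (0.0393) or sham rat 55 (0.0443), all adjusted over the miRNAs tested. It did not pass with scaling to 4 reference miRNAs (edgeR adjusted p = 0.330), without a filter (0.0966) or in a fit of all 24 libraries (0.261).

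rno-miR-125a-5p, which shares that seed, ran from 15085 through a median of 17400 to 20830 CPM in the sham cortex and from 17223 through 20600 to 26099 in the TBI cortex. Of the 6 TBI rats, 3 were above every sham rat. Its log2 fold change was 0.27 (SE 0.12, 95% interval 0.01 to 0.52), with an edgeR adjusted p of 0.214. With library size as the only scaling, which raised the median of all miRNAs by 0.20 on the log2 scale, both miR-125 members passed, with 0.65 for rno-miR-125b-5p (edgeR adjusted p = 0.00939) and 0.46 for rno-miR-125a-5p (adjusted p = 0.0492).

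The miR-99/100 members overlapped between the groups over most of their range. rno-miR-99a-5p ran from 26869 through a median of 37437 to 53010 CPM in the sham cortex and from 27934 through 33457 to 44504 in the TBI cortex. No TBI rat lay outside the sham range, and the log2 fold change was -0.10 (SE 0.17, edgeR adjusted p = 0.771). rno-miR-99b-5p ran from 4509 through 5675 to 7870 CPM in sham and from 4325 through 5267 to 6729 in TBI, a log2 fold change of -0.09 (SE 0.15, edgeR adjusted p = 0.767). Only TBI rat 22, at 4325 CPM, was below the sham range. rno-miR-100-5p ran from 6556 through 9384 to 12524 CPM in sham and from 7630 through 9492 to 10652 in TBI, a log2 fold change of 0.02 (95% interval -0.29 to 0.33, edgeR adjusted p = 0.961). The signs of the 3 values changed with the scaling or with 1 rat left out. No member was without overlap between the groups in cortex, as 2.70% of all miRNAs tested were.

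**Figure D2:**
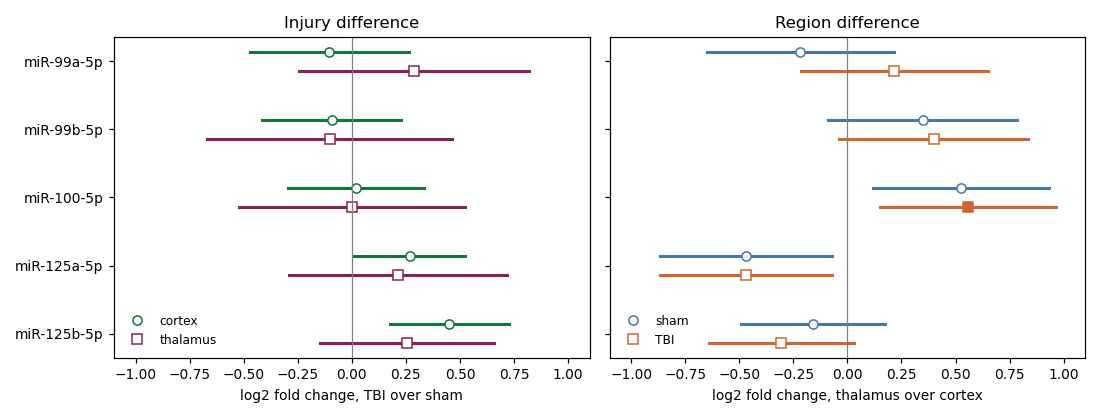
Log2 fold change of each member with its 95% interval from the edgeR fit, TBI over sham by region on the left and thalamus over cortex by group on the right, with filled symbols for an adjusted p under 0.05. Only rno-miR-100-5p in TBI rats is filled, and rno-miR-125b-5p has the largest injury value in cortex (0.45).

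Marker miRNAs of other cells were measured in the same libraries. In the cortex 1 of 4 neuron markers fell (miR-128-3p, log2 fold change -0.75, edgeR adjusted p = 0.0231). The summed level of the 4 on the 24-library scale was 327726 to 608459 CPM in sham and 249369 to 332483 in TBI. That sum was mostly miR-128-3p, with means of 331428 of 460119 CPM in sham and 191530 of 297403 in TBI. The remaining neuron markers did not pass, with log2 fold changes of 0.15 (miR-124-3p), -0.07 (miR-138-5p) and -0.27 (miR-9a-5p). None of the 4 microglia and leukocyte markers passed, though all 4 had a positive log2 fold change and 3 an unadjusted p under 0.05, with sums of 788.3 to 1283 CPM in sham and 861.5 to 1873 in TBI. None of 3 oligodendrocyte markers, 4 vessel markers or 2 red cell markers passed, and 1 of the 2 tested choroid plexus and epithelium markers rose. In the thalamus none of the markers passed between TBI and sham. The part of these cells in the miR-125 values was not tested. In bulk tissue, fewer cells of a type and less RNA per cell cannot be told apart.

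In the thalamus no member differed between TBI and sham (edgeR adjusted p from 0.795 to 1.00), against 0.513% of all 390 miRNAs tested. No member had an unadjusted p under 0.05, where 5.64% of all miRNAs tested did. Without sham rat 55, 2 of 5 did (rno-miR-99a-5p and rno-miR-100-5p), beside 34 of the 393 miRNAs then tested. Without rats 55 and 56, 0 of 5 did, beside 33 of the 391 miRNAs then tested. rno-miR-99a-5p had the largest value, with 27133 through a median of 36418 to 68162 CPM in sham and 33452 through 45609 to 76346 in TBI, a log2 fold change of 0.29 (95% interval -0.24 to 0.82). The highest libraries were those of rats 55 and 56. The value was 0.57 without sham rat 55 (edgeR adjusted p = 0.429), 0.19 without TBI rat 56 and 0.34 without both. rno-miR-125b-5p ran from 15495 through 27178 to 33682 CPM in sham and from 27034 through 30216 to 41117 in TBI, a log2 fold change of 0.25 (95% interval -0.15 to 0.66). Its lowest sham library was again that of rat 55, and 2 of 6 TBI rats were above every sham rat. rno-miR-125a-5p ran from 6391 through 17232 to 20998 CPM in sham and from 14447 through 17417 to 23929 in TBI, a log2 fold change of 0.21 (95% interval -0.29 to 0.72), which was 0.13 without rat 55.

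rno-miR-99b-5p ran from 6512 through 6795 to 18255 CPM in the sham thalamus and from 6330 through 8374 to 10967 in the TBI thalamus, a log2 fold change of -0.10 (95% interval -0.67 to 0.46). rno-miR-100-5p ran from 11925 through 13883 to 32215 CPM in sham and from 12796 through 15933 to 21217 in TBI, a log2 fold change of -0.00037 (95% interval -0.52 to 0.52). For both, the sham rat 55 was the highest library of the region and 5 of 6 TBI rats were above the sham median. Without rat 55 the values were 0.30 (edgeR adjusted p = 0.578) and 0.37 (adjusted p = 0.461). TBI rat 56 was the highest TBI library for both, and without rats 55 and 56 the values were 0.14 and 0.22. The median log2 fold change was 0.21 over the members and -0.03 over all miRNAs tested, and no member was without overlap between the groups, as 1.28% of all were. The widest intervals reached 0.82 above and 0.67 below 0, so moderate changes in either direction were not detectable with these rats.

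The next comparison set the injury difference in thalamus against that in cortex, as an interaction over all 24 libraries. No member passed, as none of all 407 miRNAs tested did (0% called), and at an unadjusted p under 0.05 the count was 0 of 5 members against 3.93% of all. The values were 0.44 for rno-miR-99a-5p (95% interval -0.17 to 1.05), -0.15 for rno-miR-125b-5p (-0.62 to 0.33), 0.05 for rno-miR-99b-5p, 0.03 for rno-miR-100-5p and -0.0028 for rno-miR-125a-5p, each with an edgeR adjusted p of 1.00. Without sham rat 55 the 3 miR-99/100 values were 0.69, 0.40 and 0.38 (rno-miR-99a-5p, rno-miR-99b-5p and rno-miR-100-5p) and the miR-125 values -0.24 and -0.33 (rno-miR-125a-5p and rno-miR-125b-5p). None of these passed (edgeR adjusted p from 0.362 to 0.752). At an unadjusted p under 0.05, 1 of 5 members was counted, rno-miR-99a-5p, beside 41 of the 412 miRNAs then tested. With the rat as a block and all rats kept, 0 of 5 were counted, beside 19 of 407 miRNAs. With the block and without sham rat 55, 3 of 5 were, beside 75 of 412. No member passed after adjustment in these fits. A difference between the regions in the response of the miR-125 branch was therefore not shown.

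Regions were then compared within each group. In sham rats no member passed (25.1% of 407 miRNAs did), and in TBI rats 1 of 5 did (27.3%), which was rno-miR-100-5p. At an unadjusted p under 0.05 the members counted were rno-miR-100-5p and rno-miR-125a-5p in both groups, 2 of 5, against 34.9% of all miRNAs tested in sham and 34.4% in TBI. Each test sets different libraries against each other, but both use the spread of all 24. Without sham rat 55, 3 of 5 members passed in TBI rats and none in sham rats. Of all 412 miRNAs then tested, 121 passed in TBI and 109 in sham.

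rno-miR-100-5p had the largest fitted difference between regions of all members in both groups, with the higher level in thalamus. On the 24-library scale it ran from 7298 through a median of 10483 to 13747 CPM in sham cortex and from 10573 through 13038 to 28097 in sham thalamus. In TBI rats it ran from 8331 through 10549 to 11454 CPM in cortex and from 11343 through 14294 to 18982 in thalamus, where 5 of the 6 libraries lay above every TBI cortex library. The thalamus was higher in 6 of 6 TBI rats, by a median log2 ratio of 0.46, and in 4 of 6 sham rats, by a median of 0.22. The fitted log2 fold change was 0.56 in TBI (SE 0.20, 95% interval 0.15 to 0.97, edgeR adjusted p = 0.0364) and 0.53 in sham (SE 0.20, adjusted p = 0.0531). The TBI call was lost without TBI rat 56 (edgeR adjusted p = 0.140) or TBI rat 22 (0.0700), and remained without rats 55 and 56 together (0.45, adjusted p = 0.0150). Without sham rat 55 the sham value was 0.17 (edgeR adjusted p = 0.408).

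rno-miR-99b-5p, of the same seed, was higher in thalamus in 6 of 6 TBI rats and 2 of 6 sham rats, with fitted values of 0.40 (edgeR adjusted p = 0.184) and 0.35 (adjusted p = 0.238). Without sham rat 55 the sham value was -0.0071, and the TBI value passed (0.39, edgeR adjusted p = 0.0444). rno-miR-99a-5p differed in sign between the groups, at -0.22 in sham and 0.22 in TBI, and neither passed (edgeR adjusted p = 0.476 and 0.495). The sham value was -0.48 without sham rat 55 (edgeR adjusted p = 0.0747) and passed without rats 55 and 56 (-0.47, adjusted p = 0.0435), where the TBI value was 0.10. It was higher in thalamus in 2 of 6 sham rats and 3 of 6 TBI rats.

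rno-miR-125a-5p went the other way. It ran from 16995 through 19466 to 23186 CPM in sham cortex and from 5574 through 15192 to 18618 in sham thalamus. In TBI rats it ran from 19477 through 22211 to 27204 CPM in cortex and from 12925 through 15618 to 22337 in thalamus. The thalamus was lower in 5 of 6 sham and 6 of 6 TBI rats. The fitted log2 fold change was -0.47 in both groups (edgeR adjusted p = 0.0800 in sham and 0.0763 in TBI). The sham value rested on rat 55, whose log2 ratio of thalamus to cortex was -2.06 while the other 5 sham rats were at -0.45 to 0.13, and without that rat it was -0.24 (edgeR adjusted p = 0.216). With the rat as a replicate block, which pairs the regions of 1 animal, the sham value was -0.54 and passed (edgeR adjusted p = 0.0457), while the TBI value of -0.48 did not (0.0636). With the block and without sham rat 55 the sham value no longer passed (-0.25, edgeR adjusted p = 0.0967) and the TBI value did (-0.49, adjusted p = 0.00081). Without sham rat 55 the TBI value passed (-0.48, adjusted p = 0.00473), although that rat is in the other group, and without rats 55 and 56 it was -0.46 (adjusted p = 0.00878). The spread is shared by all groups in this fit.

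rno-miR-125b-5p was lower in thalamus in 4 of 6 sham and 5 of 6 TBI rats. Its fitted values were -0.16 in sham and -0.31 in TBI (edgeR adjusted p = 0.502 and 0.182). In sham the value was 0.0079 without rat 55. Of the members, 0 of 5 moved the same way in all 6 sham rats (25.6% of all miRNAs did) and 3 of 5 in all 6 TBI rats (34.9%), which were rno-miR-99b-5p and rno-miR-100-5p upward and rno-miR-125a-5p downward. The median fitted log2 fold change was -0.16 over the members in sham and 0.22 in TBI, beside 0.04 and -0.03 over all miRNAs tested.

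**Figure D3:**
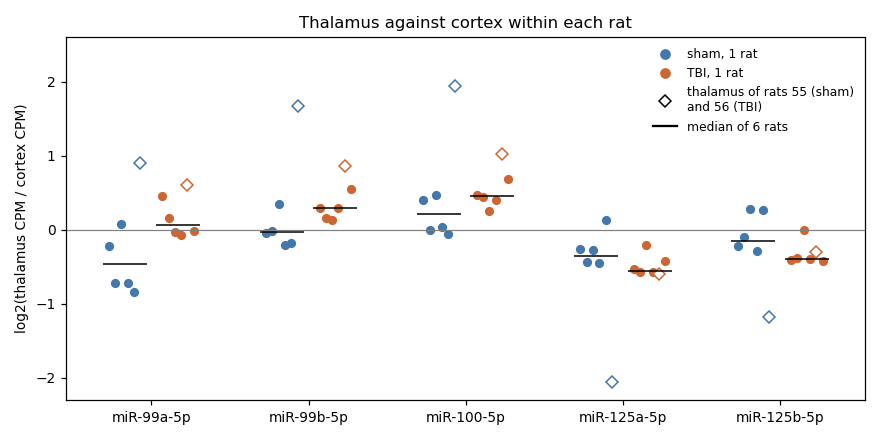
Log2 ratio of the thalamus level to the cortex level within each rat, on the 24-library scale, with 1 point per rat and a line at the median of 6. In TBI rats all points of rno-miR-99b-5p and rno-miR-100-5p are above 0 and all of rno-miR-125a-5p below 0, and rat 55 (open diamond, sham) is the extreme point of every member.

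Levels of some cell type marker miRNAs differed between the regions in the same libraries. All 3 oligodendrocyte markers were higher in thalamus in both groups, with sums of 3584 to 4321 CPM in sham cortex and 10137 to 17587 in sham thalamus. Of 4 neuron markers, 3 were lower in sham thalamus and 4 in TBI thalamus, with sums of 168315 to 325165 CPM in sham thalamus. No microglia and leukocyte or red cell marker passed between regions, and 1 of 4 vessel markers was lower in sham thalamus. Of 3 choroid plexus and epithelium markers 1 was higher in TBI thalamus. That was miR-204-5p, with a TBI thalamus median of 1751 CPM and rat 45 far above it at 13636. The part of cell makeup in the values of rno-miR-100-5p and rno-miR-125a-5p was not tested.

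Ratios of members within a library do not depend on the scaling. They are given with no test for the pairs of a miR-125 and a miR-99/100 member that lie in 1 cluster, and for the 2 miR-125 members, which lie in different clusters. The row of rno-miR-125b-5p pools both of its genes, so its ratios are not those of 1 cluster alone. The log2 ratio of rno-miR-125a-5p to rno-miR-99b-5p, whose hairpins are under 1 kb apart, was 1.65 ± 0.404 in sham cortex and 1.99 ± 0.137 in TBI cortex (SD, n = 6). In thalamus it was 0.83 ± 1.20 in sham and 1.13 ± 0.464 in TBI. A value of 1 is a doubling of reads, and the mean ratio was larger in cortex than in thalamus in both groups. In the library of sham rat 55 the ratio was -1.51, with rno-miR-99b-5p the higher, and the other 5 sham thalamus libraries were at 0.67 to 1.69. Without that rat the sham means were 1.54 in cortex and 1.30 in thalamus, so the regions were closer in sham. The sham thalamus mean was then above that of TBI, which still held rat 56, its lowest library at 0.40.

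For rno-miR-125b-5p and rno-miR-99a-5p the log2 ratio was -0.60 ± 0.405 in sham cortex and -0.07 ± 0.363 in TBI cortex (SD, n = 6), where 3 of 6 TBI rats were above every sham rat. In thalamus the means were -0.55 in sham and -0.57 in TBI, and the sham mean was -0.23 without rat 55. The TBI mean still held rat 56, the lowest TBI library at -1.47. For rno-miR-125b-5p and rno-miR-100-5p it was 1.42 ± 0.398 in sham cortex and 1.82 ± 0.201 in TBI cortex, and in thalamus 0.75 ± 0.918 and 0.96 ± 0.431. Without rat 55 the sham thalamus mean was 1.12 ± 0.269 (SD, n = 5), which turned the order of the thalamus means. Here too the TBI mean held its lowest library, rat 56 at 0.38. Means without both rats are not given, so these orders rest on leaving out a rat of 1 group only. The log2 ratio of rno-miR-125b-5p to rno-miR-125a-5p was 0.47 ± 0.0946 in sham cortex, 0.65 ± 0.120 in TBI cortex, 0.82 ± 0.263 in sham thalamus and 0.81 ± 0.0982 in TBI thalamus (SD, n = 6). All 24 libraries had more rno-miR-125b-5p reads than rno-miR-125a-5p reads, with the highest log2 ratio (1.28) in the thalamus library of rat 55.

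**Figure D4:**
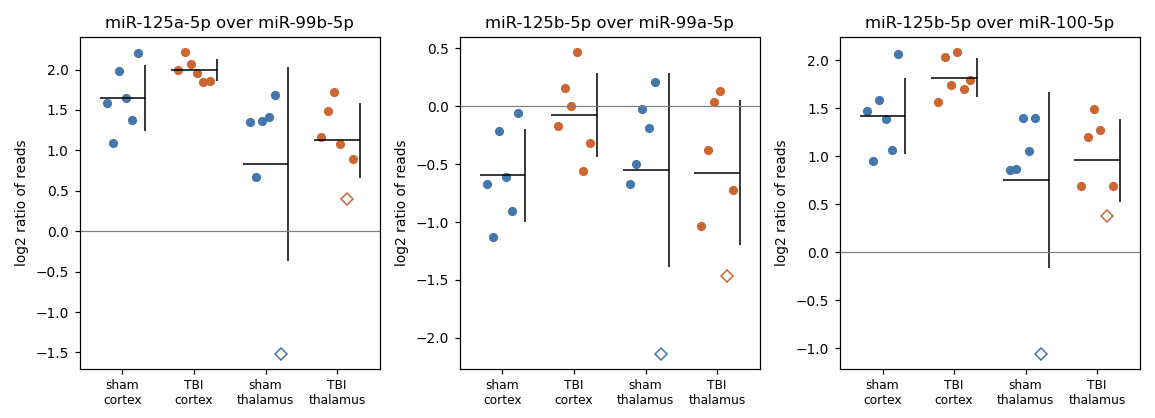
Log2 ratio of reads between a miR-125 and a miR-99/100 member with genes in 1 genomic cluster, in every library. Lines give the mean and SD of 6 rats, and reads of rno-miR-125b-5p come from both of its genes. The cortex means are 1.65 and 1.99, -0.60 and -0.07, and 1.42 and 1.82 for sham and TBI in the 3 panels, and rat 55 (open diamond, sham thalamus) is the lowest point of each panel.

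Across libraries the members of 1 branch varied together. Over deviations from the group means in 24 libraries (12 rats, 2 regions each, with shared depth and preparation), Pearson's r was 0.91 for rno-miR-125a-5p with rno-miR-125b-5p, 0.92 for rno-miR-99b-5p with rno-miR-100-5p, 0.84 for rno-miR-99a-5p with rno-miR-100-5p and 0.71 for rno-miR-99a-5p with rno-miR-99b-5p. Between the branches r ran from -0.77 to -0.44. Without rats 55 and 56 (20 libraries) the r within branches was 0.44 to 0.82, but between the branches it ran from -0.48 to 0.34. The negative r between the branches thus rested largely on those 2 rats in most pairs. For rno-miR-99a-5p with rno-miR-125a-5p it was -0.73 over all 24 libraries and still -0.48 without those rats. The positive r within a branch was also seen without them. How reads that match several members were divided is not given, and its part in these r values was not tested.

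Among 342 other miRNAs with a mean of at least 10 CPM, those with the most similar pattern over the 24 libraries were miR-23a-3p for rno-miR-125b-5p (r = 0.94), miR-221-3p for rno-miR-125a-5p (r = 0.92), miR-134-5p for rno-miR-99b-5p (r = 0.86), miR-195-3p for rno-miR-99a-5p (r = 0.86) and miR-6329 for rno-miR-100-5p (r = 0.82). miR-195-5p was among the 3 most similar for both miR-125 members (r = 0.88 and 0.89). These r values describe libraries that share depth and rats, and carry no test.

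The opposite strands of the same hairpins were far less abundant. rno-miR-100-3p had 0 to 10 reads in the 24 libraries and was not tested. The other 5 had median counts of 23 to 1486 reads in cortex and 53.5 to 2198 in thalamus. None of the 5 passed in any of the injury or region comparisons by the edgeR test (5 of 6 listed were tested), and their median log2 fold change in the cortex injury comparison was 0.06.

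The ratio of the 5p to the 3p strand was compared between TBI and sham by an exact two-sided permutation test, in which the smallest possible p is 0.00216. Of 10 ratios (5 pairs in 2 regions) none passed after adjustment over the 10. The lowest p was that of rno-miR-125b-5p over rno-miR-125b-2-3p in cortex. Its log2 ratio ran from 4.08 through a median of 4.76 to 5.05 in sham and from 4.71 through 5.13 to 5.71 in TBI, and 4 of 6 TBI rats were above every sham rat. The means were 4.69 ± 0.330 and 5.14 ± 0.332 (SD, n = 6), a difference of 0.45 (exact permutation p = 0.0260, adjusted p = 0.260). Over the other opposite strand, rno-miR-125b-1-3p, the difference in cortex was 0.39 (exact permutation p = 0.158, adjusted p = 0.743), also with the higher mean in TBI. Reads of rno-miR-125b-5p come from both genes, so neither ratio is that of 1 hairpin. In thalamus the 2 differences were 0.27 and 0.12 (exact permutation p = 0.606 and 0.842), and -0.089 and -0.32 without sham rat 55.

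**Figure D5:**
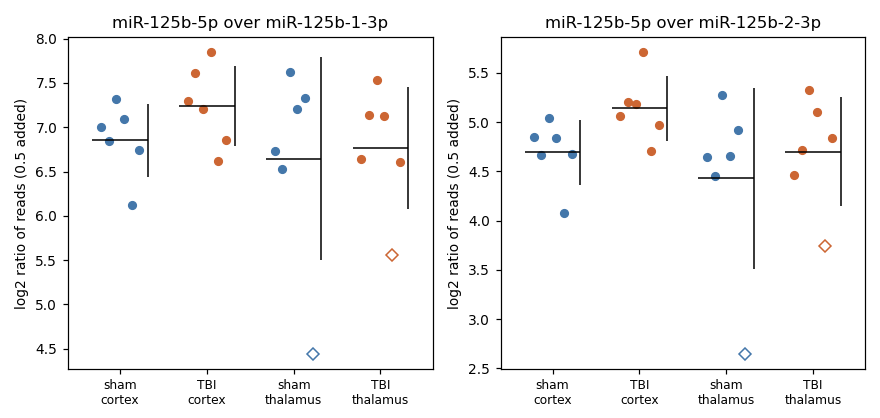
Log2 ratio of rno-miR-125b-5p reads to reads of each opposite strand in every library (0.5 reads added to both), with the mean and SD of 6 rats. In cortex the means are 6.85 in sham and 7.24 in TBI for the first strand and 4.69 and 5.14 for the second, and rat 55 is the lowest sham thalamus point in both panels.

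For rno-miR-99a-5p over rno-miR-99a-3p, a strand of only 3 to 107 reads, the difference was -0.52 in cortex and 0.51 in thalamus (exact permutation p = 0.223 and 0.387). For rno-miR-99b-5p it was -0.05 and 0.02, and for rno-miR-125a-5p 0.22 and 0.14, with exact permutation p of at least 0.652.

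The let-7 miRNAs of the 3 clusters did not pass in any comparison (0 of 3 in each, edgeR). They are repressors of growth and cell cycle genes. In cortex let-7c-5p, from the Mir99a cluster, had the largest injury value, a log2 fold change of 0.31 (SE 0.17, edgeR adjusted p = 0.280), let-7e-5p had 0.08 and let-7a-5p 0.06. In thalamus let-7c-5p was at 0.39 (SE 0.19, edgeR adjusted p = 0.774). Mature let-7a and let-7c can also come from genes outside these clusters.

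Of the relatives, none of 3 passed in any comparison (edgeR). miR-351-5p, which has the seed of the miR-125 branch, stood far below it, at medians of 310.4 CPM in sham cortex and 324.7 in TBI cortex, and its log2 fold change was 0.22 in cortex (SE 0.16, edgeR adjusted p = 0.427) and 0.47 in thalamus (SE 0.27, adjusted p = 0.774). Between regions it was lower in thalamus, as rno-miR-125a-5p was, by -0.51 in sham and -0.21 in TBI on the log2 scale (edgeR adjusted p = 0.118 and 0.543). miR-10a-5p and miR-10b-5p, Hox-cluster miRNAs related in sequence to the miR-99/100 branch, were at medians of 89.6 and 82.8 CPM in sham cortex. Among the members, opposite strands, let-7 miRNAs and relatives, miR-10b-5p had the largest interaction, at -0.91 (unadjusted p = 0.0300, edgeR adjusted p = 1.00).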

How the data were processed

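RNA of the perilesional cortex and ipsilateral thalamus was made into small RNA libraries by a service provider (NEBNext kit, Illumina NextSeq). Per the study's methods, inserts of miRNA length were selected, adapters were trimmed, quality was checked with FastQC, and reads were assigned to miRBase entries on the rat assembly RGSC3.4. The aligner, and how reads that match several miRNAs were divided, are not given in the sources used here, so values of members with near-identical sequences are uncertain. The authors deposited whole read counts per miRNA and library, which were used as deposited. Deposited CPM tables were not used.

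Only rows of rat miRNAs entered the library sizes. Counts were tested with edgeR 4.0.16 in R 4.3.3 (filterByExpr, TMM, quasi-likelihood F-test, Benjamini-Hochberg over all miRNAs tested, threshold 0.05). Injury was tested within a region (12 libraries). Region differences and the interaction came from 1 fit of 24 libraries in 4 groups. SE is the absolute log2 fold change over the square root of F. Arm ratios used log2((5p + 0.5)/(3p + 0.5)) with exact permutation over all 924 divisions of 12 libraries, where the 3p median was at least 10 reads. Alternatives were other scalings (library size, RLE factors, 4 reference miRNAs), DESeq2 1.42.0, other filters, other sets of libraries, the rat as a block, and each rat left out. The fit without rats 55 and 56, and the block without rat 55, were chosen after seeing the data. The fits were also run on simulated data, with changes larger than the fitted member values, independent libraries and no outlying rat. That setting does not cover small changes or outlying rats.

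Cortex and thalamus libraries with the same number in their titles were taken to come from the same rat, which the titles do not state. Deviations from group means correlated within rats at a median of 0.38 (-0.18 to 0.64, above 0.1 in 8 of 12). In TBI rats the correlations were 0.30 to 0.64. In sham rats they were -0.18 to 0.49, with rats 26, 32, 50 and 55 below 0, so the pairing was less clear there. No 2 libraries of a group agreed within sampling noise (chi-square per degree of freedom at least 35.0). Named were the 5 members, their opposite strands, let-7 of the same clusters, relatives by seed or family, cell type markers, and per member the 3 miRNAs of highest r of log2(CPM + 1). Of these, only those the results touch are printed. The members and lists were chosen with earlier results of these data known. Sequences were taken from RefSeq (GRCr8), a build other than that of the counts.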

Additional observations from a re-analysis of the deposited data

Results flagged for a closer look

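Of 76 groups of 6 values examined (member levels, shares, ratios and depth), 10 held a value whose gap to its nearest neighbour was larger, relative to the group's range, than Dixon's 95% critical value, where chance gives about 1 in 20. Of the 10, 7 were the thalamus library of sham rat 55, the shallowest of its region. There rno-miR-99b-5p was at 18255 CPM (next 9307) and rno-miR-100-5p at 32215 CPM (next 14946). The log2 ratios of reads there were -1.51 for rno-miR-125a-5p over rno-miR-99b-5p (next 0.67), -2.14 for rno-miR-125b-5p over rno-miR-99a-5p (next -0.67) and -1.06 for rno-miR-125b-5p over rno-miR-100-5p (next 0.86). The log2 ratios of rno-miR-125b-5p were 4.44 over rno-miR-125b-1-3p (next 6.53) and 2.65 over rno-miR-125b-2-3p (next 4.45).

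The thalamus library of TBI rat 56 was flagged for the log2 ratio of rno-miR-99a-5p over rno-miR-99a-3p, at 12.9 (next 11.3), and of rno-miR-99b-5p over rno-miR-99b-3p, at 4.38 (next 4.86). The cortex library of sham rat 34 was flagged for rno-miR-99a-5p over rno-miR-99a-3p, at 10.2 (next 11.7).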

How the results depend on the processing

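The number of members called for injury in cortex (0) was 2 with library size only and 1 with RLE factors, with DESeq2, with a mean count of at least 50 and without rats 55 and 56, and 0 to 1 with each rat left out. In thalamus and for the interaction it was 0 in every fit run. Between regions in sham rats (0) it was 2 with library size only and 1 with RLE factors, reference scaling, DESeq2, the replicate block or without rats 55 and 56, and 0 to 1 with each rat left out. In TBI rats (1) it was 2 with library size only, in the 12 TBI libraries alone or without rats 55 and 56, 0 without a filter, and 0 to 3 with each rat left out (3 without sham rat 55, 0 without TBI rat 22 or 56). With the replicate block and without sham rat 55 together, it was 1 in sham (rno-miR-99a-5p) and 4 in TBI. Of all 412 miRNAs tested in that fit, 149 passed in sham and 167 in TBI. The paired fit with all rats (replicate block) changed no other member call. Over all miRNAs, the 21 cortex calls became 39 with library size only, 0 with reference scaling, 41 with DESeq2 and 5 in the 24-library fit. The split of higher to lower calls was 11 to 10, 36 to 3 with library size only and 26 to 15 with DESeq2. With each rat left out they ran from 4 to 30. The 2 thalamus calls became 0 with reference scaling, 3 with DESeq2, 1 with a mean count of at least 50 and 5 in the 24-library fit. Between regions with library size only, 102 calls in sham became 168, with a split of 52 to 50 becoming 146 to 22, and in TBI a split of 57 to 54 became 69 to 34. Library size only moved the median of all miRNAs by 0.20 in cortex, 0.42 between regions in sham, 0.18 in TBI and -0.27 in the interaction. No arm ratio passed under any alternative.

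The 1 member value that passed, rno-miR-100-5p between regions in TBI rats, kept its sign in every fit run. Several values that did not pass changed sign. In cortex rno-miR-99a-5p was 0.12 and rno-miR-99b-5p 0.13 with library size only. rno-miR-100-5p was -0.0087 with RLE factors, -0.0088 with DESeq2, -0.0037 without a filter, -0.025 in the 24-library fit and -0.10 without rats 55 and 56. With each rat left out these 3 ran from -0.24 to 0.016, -0.23 to 0.020 and -0.13 to 0.13. In thalamus rno-miR-100-5p was 0.053 with library size only, 0.042 with RLE factors or DESeq2, 0.049 without a filter, 0.034 with a mean of at least 50, 0.0073 in the 24-library fit and 0.22 without rats 55 and 56. Without those rats rno-miR-99b-5p was 0.14, and rno-miR-125a-5p was -0.020 with reference scaling. With each rat left out rno-miR-99b-5p ran from -0.17 to 0.30 and rno-miR-100-5p from -0.066 to 0.37.

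Between regions in sham, rno-miR-99a-5p was 0.18 and rno-miR-125b-5p 0.29 with library size only, and rno-miR-125b-5p 0.017 without rats 55 and 56. With the replicate block and without sham rat 55, rno-miR-99b-5p was -0.0058 and rno-miR-125b-5p 0.0017. With each rat left out rno-miR-99b-5p ran from -0.0071 to 0.48 and rno-miR-125b-5p from -0.26 to 0.0079. In the interaction rno-miR-99b-5p was -0.17 with library size only and -0.0032 with reference scaling, and rno-miR-100-5p -0.19 and -0.042. rno-miR-125a-5p was 0.016 with RLE factors or DESeq2 and 0.054 with the replicate block. With each rat left out they ran from -0.056 to 0.40, -0.093 to 0.38 and -0.24 to 0.16. The cause of these changes was not tested.

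Arm ratio differences that changed sign were those of rno-miR-99b-5p in cortex, which ran from -0.15 to 0.099 with each rat left out, and in thalamus, from -0.020 to 0.13. rno-miR-125a-5p ran from -0.016 to 0.46 in cortex and from -0.36 to 0.45 in thalamus, where it was -0.043 without rats 55 and 56. rno-miR-125b-5p in thalamus ran from -0.32 to 0.36 over rno-miR-125b-1-3p, at -0.077 without rats 55 and 56, and from -0.089 to 0.46 over rno-miR-125b-2-3p.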
